A study of Mus musculus with 7 samples.

Results

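The replication-dependent histone genes encode the bulk of the proteins that package DNA: the linker histone H1 and the core histones H2A, H2B, H3 and H4. Members were the annotated genes whose symbol begins with H2ac, H2bc, H3c or H4c and ends in a number, together with H1f1 to H1f5. On the array 50 genes matched, of 16593 with a symbol, and they carried 55 of the 25697 probes. By class there were 5 H1 genes with 5 probes, 14 H2A genes with 14 probes, 12 H2B genes with 14 probes, 9 H3 genes with 12 probes and 10 H4 genes with 10 probes. The gene set comprises copies whose coding sequences are near-identical, and the probe sequences were not used here, so a probe named for 1 gene may also bind transcripts of its neighbours.

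The study examined megakaryocyte-erythroid progenitors, blood-forming cells that give rise to red cells and to the precursors of platelets. Mice with both SSB1 and SSB2 knocked out gave the 3 double knockout samples, and wild-type mice gave the 4 control samples. SSB1 and SSB2 (genes Nabp2 and Nabp1) are single-stranded DNA binding proteins that act in DNA repair. All mice were female C57BL/6, and cells in both groups had been sorted as lineage-low, c-Kit positive, Sca-1 negative, and low for CD34 and CD16/32. The age of the mice, how the genes were deleted, and whether a sample pooled several mice could not be taken from the labels, so p-values measure the spread between these samples, which may in part be technical.

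Replication-dependent histone genes are transcribed during S phase, when new chromatin must be built behind the replication fork. They lie in clusters, many of them as H2A and H2B genes that face away from each other across a short shared promoter. Their mRNAs lack introns in most cases and end in a stem-loop bound by Slbp in place of a poly(A) tail, although some of these genes also yield polyadenylated transcripts. The labelling kit named in the labels starts from an oligo(dT) primer, so how fully stem-loop mRNAs were captured is open to doubt, and it was not tested.

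The whole series sets the scale of the values. The double knockout arrays were the brighter group, with a mean signal per array of 651 to 669.8 against 443 to 615 on control arrays, and 41.2% to 43.4% of probes detected against 36.6% to 40.3%. For mean signal the exact two-sided permutation p was 0.0571, where the smallest this design allows is 0.0286. Values called normalized below were background-corrected and quantile-normalized, so that a change is relative to the typical probe. One Nabp2 probe fell by 2.04 on the log2 scale (limma adjusted p = 0.000274) and another by 0.95 (adjusted p = 0.00790), while Nabp1 was undetected throughout. Of 12 listed marker genes of these progenitors 9 were on the array, and all of them passed the filter below, among them Gata1, Klf1 and Epor. Of their 12 kept probes 3 rose and 0 fell in the test below, against 13.5% and 12.8% of all kept probes. The probes that rose were those of Itga2b, at 1.99 and 1.66, and of Nfe2, at 0.61.

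Most histone probes were slightly lower in the double knockout relative to other genes, and few passed the test. Probes detected on 3 or more arrays (detection p under 0.05) were tested, among them 46 histone probes of 44 genes, 42 of them detected on all 7 arrays. Of the 46, 6 fell and 0 rose at a Benjamini-Hochberg adjusted p under 0.05 in limma. Over all 10723 kept probes 26.3% passed, 12.8% lower and 13.5% higher, so the share of histone probes that fell was near that background, while none rose. The 6 were H2ac8, H2ac21, H2ac11, H2ac4, H3c3 and H2bc12. At an unadjusted p under 0.05, 14 histone probes were lower and 0 higher, against 19.3% and 20.3% of all kept probes. The median log2 change of the 46 was -0.31, against 0.0020 over all kept probes. A negative sign was seen for 38 of the 46 (82.6%), against 49.8% of all kept probes. The double knockout values lay wholly below the control values for 8 histone probes and wholly above for 1, where 18.3% and 19.3% of all kept probes did so. The 8 were H1f1, H2ac4, H2ac8, H2ac11, H2ac20, H2ac21, H2bc4 and H3c3, and the 1 above was H2ac12. Histone probes share transcripts and arrays and are not independent of each other.

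**Figure D1:**
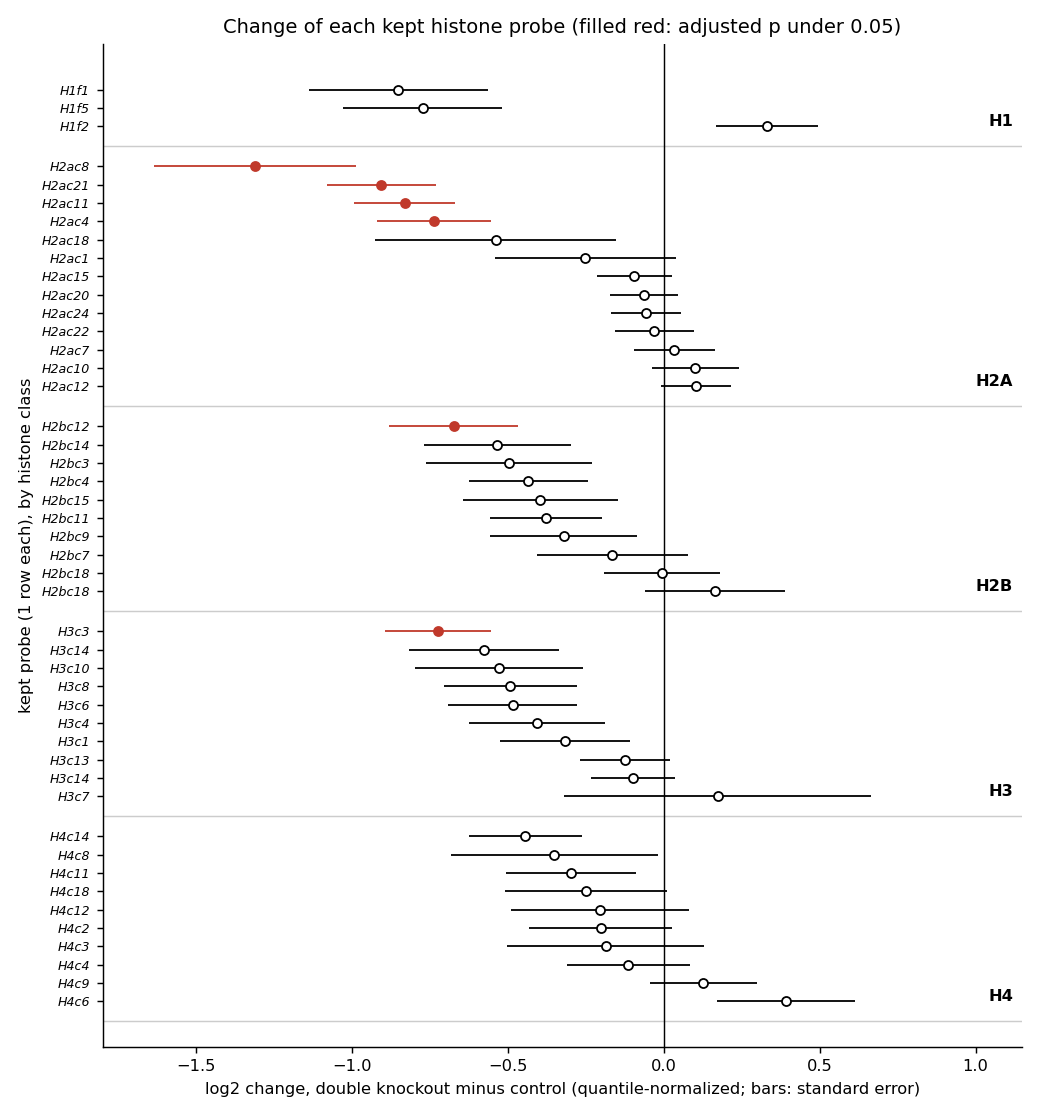
Each row is 1 of the 46 kept histone probes, grouped by class, and the horizontal axis is the log2 change of normalized signal, double knockout minus control, with its standard error. The 6 filled red points passed the test, all of them to the left of 0, from -1.31 for H2ac8 to -0.67 for H2bc12, and 38 of the 46 points lie left of 0.

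The deposited signals, before any normalization, show the other side of that relative change. In these signals 41 of the 46 histone probes were brighter in the double knockout on average, with a median ratio of 1.17 to control, and 5 were dimmer. Over all kept probes the median ratio was 1.29, and 92.7% of them were brighter in the double knockout. Of the 46 histone probes, 5 lay wholly above the control signals and 2 wholly below, where 41.6% and 0.588% of all kept probes did so. The 2 that lay below were H2ac11 and H2ac21, and the 5 above were H1f2, H2ac7, H2ac12, H4c6 and H4c9. For most of the family a negative normalized change thus went with a deposited ratio above 1 but below that of the typical probe. Deposited signals include background. The median signal over all probes, most of them undetected, was 138 to 144.3 on double knockout arrays and 123.4 to 144 on control arrays. For dim probes a ratio near 1, as for H1f1, H2ac4 and H1f5 (1.003, 1.010 and 1.025), thus cannot be read as a gain.

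The H2A genes held 4 of the 6 probes that fell, and 13 of the 46 kept histone probes. The H2A class forms dimers with H2B that flank the H3-H4 core of the nucleosome. Of 13 kept H2A probes 4 fell and 0 rose, against 12.8% and 13.5% of all kept probes. A negative sign was seen for 10, and the class median was -0.0950. The class split by brightness, and its members are described in that order. The promoters of all 6 histone genes whose probes fell are shown because these genes carry the changes that passed the test. The windows are from RefSeq on GRCm38.p6, run from 250 bases before the start of transcription to 50 bases after it, and have capitals where any of 3 elements matched on either strand. For the CCAAT box the letters searched were those of its name. For the TATA box they were TATAAA, and no mismatch was allowed. For the octamer core they were TTTGCAT.
H2ac8, chr13:23571171-23571470, minus strand: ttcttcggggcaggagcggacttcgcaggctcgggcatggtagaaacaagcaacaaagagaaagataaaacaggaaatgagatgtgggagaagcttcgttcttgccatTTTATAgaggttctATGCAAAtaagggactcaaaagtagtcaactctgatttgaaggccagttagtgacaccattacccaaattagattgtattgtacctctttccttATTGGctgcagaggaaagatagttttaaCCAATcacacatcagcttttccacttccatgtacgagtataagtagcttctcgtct
H2ac21, chr3:96219635-96219934, plus strand: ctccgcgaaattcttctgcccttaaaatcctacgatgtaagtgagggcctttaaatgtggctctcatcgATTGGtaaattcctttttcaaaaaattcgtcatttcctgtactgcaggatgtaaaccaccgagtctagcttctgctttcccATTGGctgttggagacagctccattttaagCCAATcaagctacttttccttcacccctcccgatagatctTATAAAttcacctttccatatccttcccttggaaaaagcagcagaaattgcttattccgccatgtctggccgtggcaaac
H2ac11, chr13:22042900-22043199, minus strand: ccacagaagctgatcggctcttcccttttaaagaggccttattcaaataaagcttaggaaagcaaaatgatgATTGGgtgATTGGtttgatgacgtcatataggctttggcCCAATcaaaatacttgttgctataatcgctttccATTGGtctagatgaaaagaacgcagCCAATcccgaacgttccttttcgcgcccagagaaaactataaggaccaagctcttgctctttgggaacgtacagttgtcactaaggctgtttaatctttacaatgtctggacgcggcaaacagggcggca
H2ac4, chr13:23750838-23751137, plus strand: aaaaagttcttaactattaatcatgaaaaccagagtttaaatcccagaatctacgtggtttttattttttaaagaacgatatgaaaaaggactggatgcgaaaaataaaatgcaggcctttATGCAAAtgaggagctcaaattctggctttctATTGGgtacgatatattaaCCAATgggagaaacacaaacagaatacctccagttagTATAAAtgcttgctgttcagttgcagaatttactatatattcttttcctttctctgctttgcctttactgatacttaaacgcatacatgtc
H2bc12, chr13:22035571-22035870, plus strand: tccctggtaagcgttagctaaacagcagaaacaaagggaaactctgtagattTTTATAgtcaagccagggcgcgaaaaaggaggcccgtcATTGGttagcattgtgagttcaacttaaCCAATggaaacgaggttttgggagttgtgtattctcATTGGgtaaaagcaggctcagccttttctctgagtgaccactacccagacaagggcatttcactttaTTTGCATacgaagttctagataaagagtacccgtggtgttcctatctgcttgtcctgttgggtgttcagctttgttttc
H3c3, chr13:23745472-23745771, minus strand: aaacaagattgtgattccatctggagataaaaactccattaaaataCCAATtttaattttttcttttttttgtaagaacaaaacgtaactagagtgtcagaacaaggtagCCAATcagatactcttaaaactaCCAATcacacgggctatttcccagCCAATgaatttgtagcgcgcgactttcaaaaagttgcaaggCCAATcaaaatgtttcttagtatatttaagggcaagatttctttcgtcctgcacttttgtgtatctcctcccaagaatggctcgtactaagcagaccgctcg

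These are known promoter elements of histone genes: the CCAAT box is bound by the factor NF-Y, the TATA box positions the start of transcription, and the octamer, in full ATTTGCAT, is bound by Oct-1 (Pou2f1). CCAAT matched 2 times each in the H2ac8 and H2ac4 windows, 3 times each in H2ac21 and H2bc12, and 5 times each in H2ac11 and H3c3, and no matches overlapped each other in these 6 windows. TATAAA matched 1 time each in H2ac8, H2ac21, H2ac4 and H2bc12, and TTTGCAT 1 time each in H2ac8, H2ac4 and H2bc12. In H2ac8 and H2bc12 the TATAAA match reads TTTATA, on the strand opposite to the gene, so it need not be a TATA box of that gene. Of the 50 member genes, 46 were found in the promoter table, with 47 windows. CCAAT stood in 85.1% of these windows against 37.4% of all 32851 windows, and in every H1, H2A, H2B and H3 window against 2 of 9 H4 windows. TATAAA stood in 61.7% against 13.6%, and the full octamer in 27.7% against 1.74%, in 6 of 14 H2A and 7 of 12 H2B windows and in no H1, H3 or H4 window. The E2F core TTTCCCGC matched 0 of 47 histone windows and 1.07% of all windows. A match is a description of letters and does not show that a factor binds there.

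H2ac11 and H2ac21 were the bright H2A probes that fell. H2ac11, of the large histone cluster on chromosome 13, had deposited signals of 11314, 7908 and 9761 on the double knockout arrays, against 16648, 12612, 11427 and 13532 on the control arrays. Each double knockout array lay below every control array, with double knockout array 1 and control array 3 close to each other. The normalized change was -0.83 (SE 0.161, limma adjusted p = 0.00732), a 1.78-fold lower level, at 12.98 ± 0.272 (SD, n = 3) in the double knockout and 13.82 ± 0.167 (SD, n = 4) in controls. H2ac21, of the smaller cluster on chromosome 3, had 11829, 7986 and 10314 in the double knockout, against 18914, 12871, 13074 and 14325 in controls. Here too every double knockout array was below every control array, and double knockout array 2 was again the lowest and control array 1 the highest. The change was -0.91 (SE 0.176, limma adjusted p = 0.00736), or 1.87-fold lower. For both genes the call held whichever array was left out, with adjusted p up to 0.0282 for H2ac11 and 0.0270 for H2ac21. The call also held under all 3 scalings described below, in 1 of which every histone probe had the same SE. The call was lost for both with the mean signal of the array as a covariate, at -0.64 (SE 0.293, adjusted p = 0.376) and -0.72 (SE 0.320, adjusted p = 0.363). Mean signal was higher on every double knockout array than on any control array, so the covariate fit cannot separate the group from brightness. In that fit 0 of the 46 histone probes passed in either direction, against 0.0746% of all kept probes lower and 0.41% higher.

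H2ac8 and H2ac4 were dim H2A probes that fell. H2ac8 had deposited signals of 248, 233 and 202 in the double knockout, against 414, 229.7, 225 and 286 in controls. The deposited signals overlapped, and control array 1 stood well above the other 6 arrays. After normalization the groups separated, at 6.60, 6.71 and 6.06 against 8.72, 7.50, 7.58 and 7.27 on the log2 scale, a change of -1.31 (SE 0.324, limma adjusted p = 0.0184). It was lost without double knockout array 3 (adjusted p = 0.0738) and without the filter on dim probes (adjusted p = 0.0523). Without background correction its change was -0.72, and in the authors' processed table -0.67. H2ac4 had 262, 226 and 256 in the double knockout, against 279, 201, 218 and 284 in controls, and the group means of these signals were 248 ± 19.3 (SD, n = 3) and 245 ± 42.3 (SD, n = 4). On the normalized scale, at 6.76, 6.64 and 6.72 against 7.89, 7.12, 7.49 and 7.26, the groups did not overlap, with a change of -0.74 (SE 0.182, limma adjusted p = 0.0184). That call was lost without any of the 3 double knockout arrays (adjusted p 0.0533 to 0.0587) and was at -0.11 under scaling to the median of all probes (adjusted p = 0.721). The change of H2ac4 was -0.40 without background correction.

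**Figure D2:**
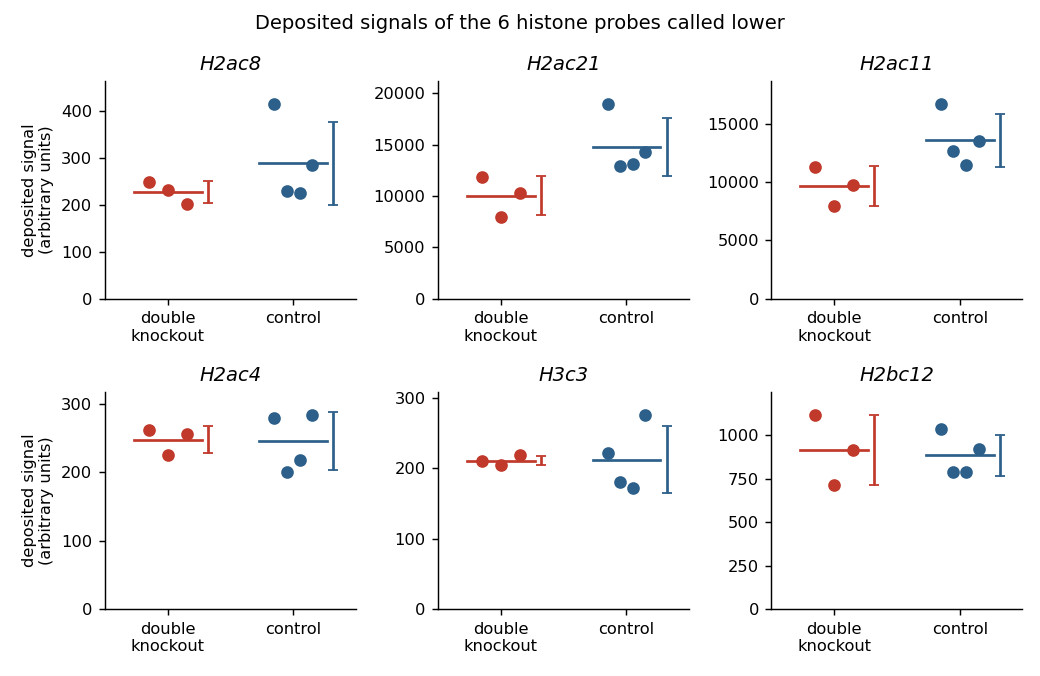
Each panel shows the deposited signal (arbitrary units, linear axis from 0) of a histone probe that fell, with 1 point per array, the mean as a line and the SD as a bar beside it. H2ac21 and H2ac11 are the panels in which all 3 double knockout arrays lie below all 4 control arrays, and the signals overlap for H2ac8, H2ac4, H3c3 and H2bc12.

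A further 7 H2A probes were among the brightest on the array and did not pass the test. H2ac7, H2ac10, H2ac12, H2ac15, H2ac20, H2ac22 and H2ac24 lay in the brightest 1% of probes on every array, with signals from 16969.9 to 31236, where the highest signal of any probe was between 31154 and 36961. H2ac12 had 26342, 26592 and 27152 in the double knockout, against 23075, 22602, 22167 and 22080.0 in controls. Its signals did not overlap as deposited, and its normalized change was 0.10 (SE 0.114, adjusted p = 0.533). H2ac24 had 31236, 28314 and 30292 in the double knockout, against 29267, 28349, 28177 and 28892 in controls, with overlapping groups and a change of -0.0569 (SE 0.113, adjusted p = 0.736). The changes of the 7 ran from -0.0950 to 0.10, and 0 of them passed the test. Of the 197 probes in the brightest 1% on every array, 4.57% fell and 3.55% rose. That set leaves out any probe below the brightest 1% on some array, as H2ac11 and H2ac21 were on double knockout array 2. By mean signal, 1.63% of kept probes over 15000 fell and 3.25% rose, against 11.9% and 9.92% from 5000 to 15000. Signals as close to the top of the scale as those of these 7 probes may not respond in proportion to RNA. Differences for the 7 may thus be understated, and this was not tested. Without these probes the histone median was -0.38. Among the dimmest H2A members, H2ac18 and H2ac1 were detected on 3 arrays each, at -0.54 and -0.25 (adjusted p = 0.328 and 0.552), and H2ac6 was not detected on any.

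**Figure D3:**
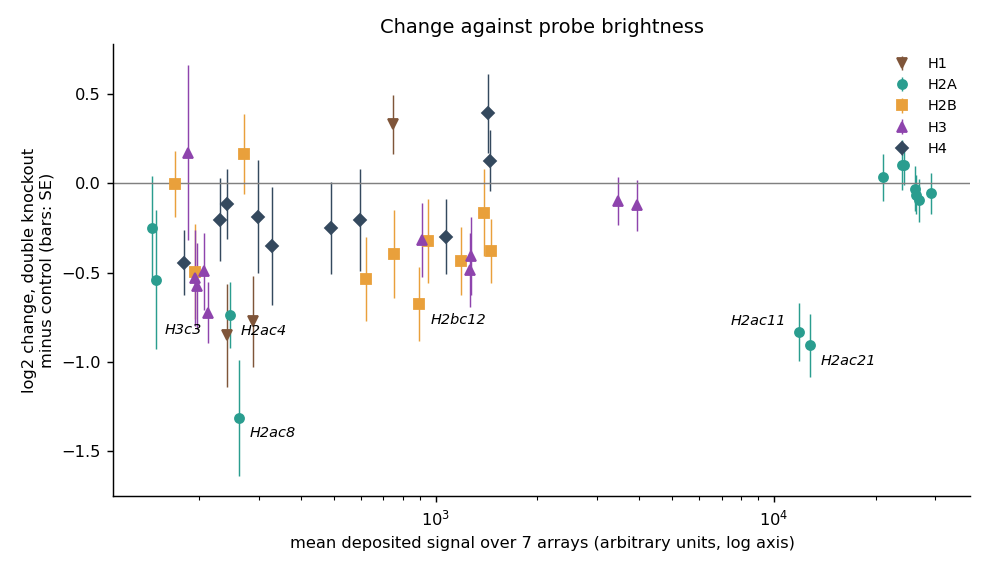
The horizontal log axis is the mean deposited signal of each kept histone probe over the 7 arrays and the vertical axis its log2 change, double knockout minus control, with the standard error; symbols mark the classes. The 7 H2A probes at the far right lie between -0.0950 and 0.10, while H2ac11 and H2ac21 just left of them lie at -0.83 and -0.91.

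The H2B genes were lower in sign almost throughout, with 1 call. H2B pairs with H2A in the nucleosome. Of 10 kept probes 1 fell and 0 rose, against 12.8% and 13.5% of all kept probes. A negative sign was seen for 9, and the class median was -0.39. H2bc12 had deposited signals of 1115, 713 and 912 in the double knockout, against 1034, 787, 788 and 923 in controls. The highest and the lowest of these 7 signals were both from the double knockout, and the groups overlapped before and after normalization. Its change was -0.67 (SE 0.206, limma adjusted p = 0.0386), a call that was kept when double knockout array 1 or control array 4 was left out and lost without any other array (adjusted p 0.0673 to 0.131). It was also lost without the filter on dim probes (adjusted p = 0.0842) and under scaling to the median of all probes, where H2bc12 was at -0.0617 (adjusted p = 0.854). H2bc11 (-0.38), H2bc14 (-0.53), H2bc15 (-0.40), H2bc9 (-0.32) and H2bc3 (-0.50) did not pass (adjusted p 0.124 to 0.336). H2bc4 had a detected probe at -0.43 (adjusted p = 0.123) with signals of 1453, 1316 and 1079 against 1472, 919, 799 and 1305, and another probe that was not detected on any array. The 2 probes of H2bc18 stood at 0.16 and -0.0060, and H2bc7 at -0.17. H2bc1, a testis form, and H2bc6 were not detected on any array. H2bc8 was detected on 2 double knockout arrays and no control array and was not tested.

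Several H2A and H2B genes lie back to back across a shared promoter, which allows their values to be set side by side. In RefSeq, pairs of divergent histone genes numbered 9 with starts within 1000 bases of each other, all of them an H2A with an H2B gene, at distances of 164 to 281 bases. Both partners were tested in 4 pairs. H2ac11 and H2bc11, with starts 249 bases apart, were at -0.83 and -0.38 (adjusted p = 0.00732 and 0.149). H2bc12 fell by 0.67 while H2ac12, 178 bases away and near the top of the signal scale, was at 0.10. H2ac15 and H2bc15 were at -0.0950 and -0.40, and H2ac7 and H2bc7 at 0.0341 and -0.17, with none of these 4 passing the test. Both partners had a negative sign in 2 of the 4 pairs. The H2A partner was within the brightest 1% in 3 of them. The partner of H2ac8 is H2bc8, 180 bases away, which was not kept.

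The H3 genes were negative in sign for most probes, with 1 call. H3 forms the centre of the nucleosome together with H4 and carries many of the regulatory marks of chromatin. Of 10 kept probes 1 fell and 0 rose, against 12.8% and 13.5% of all kept probes. The sign was negative for 9, and the class median was -0.45. H3c3 had deposited signals of 210.1, 205 and 218 in the double knockout, against 221, 181, 172 and 276 in controls. The double knockout signals lay inside the control range. After normalization they lay below it, at 6.13, 6.36 and 6.30 against 7.28, 6.79, 6.69 and 7.19, a change of -0.72 (SE 0.171, limma adjusted p = 0.0153). The call was lost without double knockout array 1 (adjusted p = 0.0628) and was at -0.14 under scaling to the median of all probes (adjusted p = 0.648). Without background correction H3c3 was at -0.34. H3c10, H3c8, H3c6, H3c4 and H3c1 were between -0.53 and -0.32 (adjusted p 0.112 to 0.284). H3c13 had 4979, 3768 and 4571 in the double knockout against 4026, 3497, 2642 and 4177 in controls, and a normalized change of -0.12 (adjusted p = 0.555). The 2 probes of H3c14 gave -0.10 and -0.58 (adjusted p = 0.613 and 0.107), from signals of 2097.7 to 4289 for the first and 159.4 to 219 for the second.

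The H4 genes did not pass the test in either direction. H4 is the most uniform of the core histones in sequence. Of 10 kept probes 8 were negative, and the class median was -0.20, the smallest in size after that of H2A. H4c14, the H4 probe with the smallest p, had 208, 176 and 185 in the double knockout and 186, 166, 159 and 184 in controls, at -0.44 (SE 0.182, limma adjusted p = 0.101). H4c6 had the largest positive value of the family, with deposited signals of 2256, 1698 and 1887 in the double knockout against 1389, 983, 656 and 1119.5 in controls. The deposited signals did not overlap, and their ratio of 1.88 was the highest of the 46 probes. The normalized change of 0.39 (SE 0.221, adjusted p = 0.216) did not pass. H4c9 showed the same separation of deposited signals, with 2045, 1746 and 1754 against 1448, 1026, 858 and 1243, and stood at 0.13 after normalization (adjusted p = 0.615). H4c2, H4c3, H4c4, H4c8, H4c11, H4c12 and H4c18 lay between -0.35 and -0.11.

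The H1 genes, whose products bind the linker DNA between nucleosomes, held 2 negative values and 1 positive, none of which passed the test. H1f1 had signals of 273, 179.9 and 274 in the double knockout against 286, 209.7, 216 and 255 in controls. Its normalized values did not overlap, and its change of -0.85 (SE 0.287, limma adjusted p = 0.0550) did not pass the threshold. H1f5 had 321, 239 and 316 against 318, 249, 293 and 280.0, and a change of -0.77 (SE 0.255, adjusted p = 0.0506). H1f2 had 1235, 891 and 929 in the double knockout against 598, 484, 422 and 671 in controls. Its deposited signals were higher on every double knockout array, and its normalized change was 0.33 (SE 0.163, adjusted p = 0.164). H1f3 and H1f4 were not detected on any array.

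The arrays of a group did not behave alike for these genes. Relative to the control mean, the median of the 46 histone probes was -0.11, -0.52 and -0.23 on double knockout arrays 1 to 3 and 0.44, 0.0187, -0.12 and -0.32 on control arrays 1 to 4. The groups thus overlapped, with control array 4 below double knockout arrays 1 and 3. Double knockout array 2 was the lowest of its group for 35 of 46 histone probes (76.1%), against 35.2% of all kept probes. Control array 1 was the highest of its group for 37 of 46 (80.4%), against 27.9%. Without control array 1 the histone median was -0.14 and 5 histone probes fell, against 1200 of all 10723 kept probes. Without double knockout array 2 the histone median was -0.15 and 4 fell, against 964 of all kept probes. On control array 1 the class medians were 0.38 for H1, 0.48 for H2B, 0.46 for H3 and 0.499 for H4, against 0.0392 for H2A. The list of 36 S phase replication genes, of which 29 had kept probes, did not share this order. Over its 44 kept probes the median was -0.16 on control array 1 against 0.0340 to 0.0424 on the other controls. On the double knockout arrays it was -0.10, -0.18 and -0.27.

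**Figure D4:**
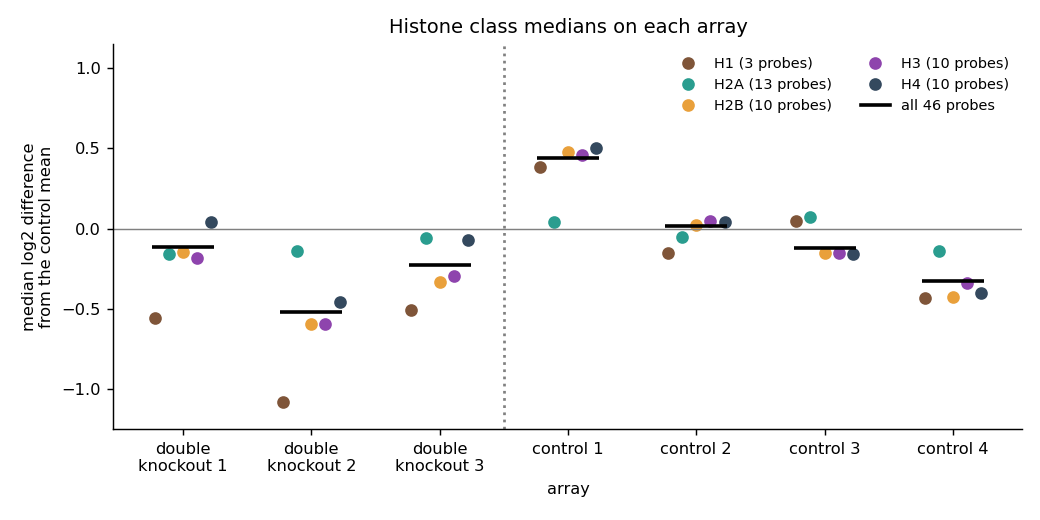
Points give the median log2 difference from the control mean for the kept probes of each histone class on each array, and black bars the median of all 46. Control array 1 stands highest at 0.44 and double knockout array 2 lowest at -0.52, and the groups overlap because control array 4 is at -0.32.

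The direction of most histone changes depended on how arrays were scaled. With each array scaled to the same median over all probes, the histone median was 0.16 and 3 probes fell while 5 rose, against 1.47% and 46.5% of all kept probes. Under that scaling H2ac11, H2ac21 and H2ac8 fell, and H1f2, H2bc18, H3c7, H4c6 and H4c9 rose. H2bc18 rose on 1 of its kept probes, and its other kept probe was at 0.41 (limma adjusted p = 0.151). Each of the 46 histone probes had the same SE of 0.241 in that fit. Its adjusted p-values thus follow the size of a change and not the spread of the probe itself. With arrays scaled to the median of probes detected on all arrays, the histone median was -0.505, and 12 fell and 0 rose, against 23.3% and 9.3% of all kept probes. The 12 were the original 6 with H1f1, H1f5, H2ac15, H2ac18, H2ac20 and H2ac24. The medians of all kept probes were 0.499 and -0.17 under these scalings, so relative to them the histone median was -0.34 in both. These 2 scalings differ only by a constant for each array. Values relative to all probes are therefore the same in both by construction, and their agreement is not a second result. Relative to all probes the class medians in these 2 scalings were -0.61 for H1, -0.54 for H2A, -0.301 for H2B, -0.37 for H3 and -0.0670 for H4. H2ac8, H2ac11 and H2ac21 fell under both. Without background correction, and in the authors' processed table, 8 histone probes fell and 0 rose in each, where 14.6% of all kept probes fell and 14.6% rose.

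**Figure D5:**
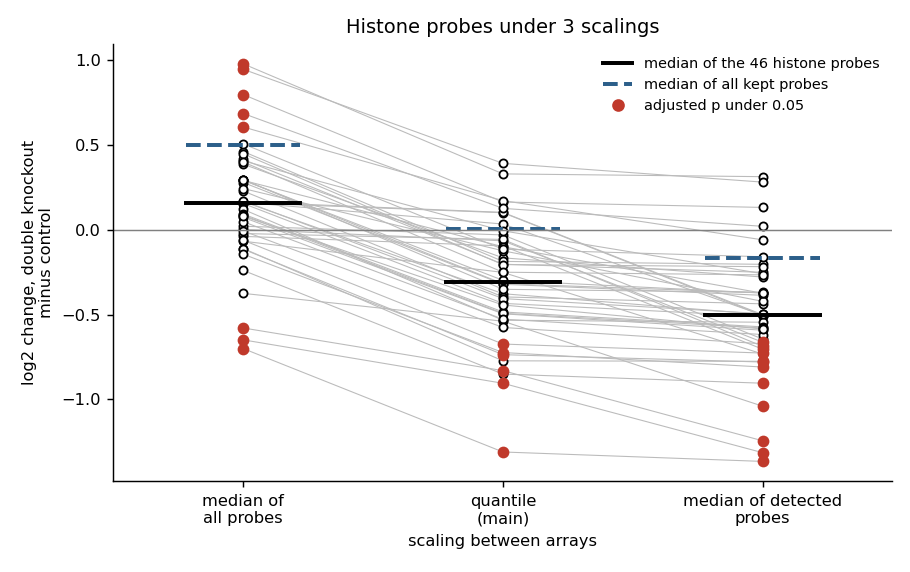
Each grey line follows 1 of the 46 kept histone probes through 3 ways of scaling the arrays, with its log2 change, double knockout minus control, on the vertical axis; red points passed the test. The solid bars (histone median: 0.16, -0.31 and -0.505) lie below the dashed bars (median of all kept probes: 0.499, 0.0020 and -0.17) in each scaling, while their position relative to 0 changes. The gap between the bars is the same by construction in the first and the last scaling.

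Genes that make, process and deliver histones were examined beside the family. Of 29 listed genes for the transcription and 3' end processing of histone mRNA, 18 had kept probes, and of their 30 probes 5 rose and 1 fell, with a median of 0.23, against 13.5% higher and 12.8% lower over all kept probes. Upf1, a helicase that takes part in the decay of histone mRNA, rose by 0.88 on 1 of its 3 kept probes (limma adjusted p = 0.00361), and the others were at 0.26 and 0.21 (adjusted p = 0.274 and 0.637). The kinase Cdk2, which with cyclin E activates histone transcription through Npat, rose by 0.83 on 1 of 4 kept probes (adjusted p = 0.00177), and the others were between 0.23 and 0.50 (adjusted p 0.0844 to 0.409). Srrt (Ars2), which links the mRNA cap to 3' end processing, rose by 0.54 on 1 of 3 kept probes (adjusted p = 0.0180), and the others were at 0.345 and 0.33 (adjusted p = 0.0696 and 0.0980). Ccne1, which encodes cyclin E1, fell by 0.74 on its only kept probe (adjusted p = 0.0118). The rising Srrt probe lost its call in at least 1 fit that left out an array (adjusted p up to 0.0593) and under scaling to detected probes (adjusted p = 0.118). Under the latter scaling the list had 4 rises and 4 falls, against 9.3% higher and 23.3% lower over all kept probes. Ccne1 lost its call under scaling to the median of all probes, at -0.0871 (adjusted p = 0.79), where 21 of the 30 rose and 0 fell, against 46.5% and 1.47% of all kept probes. No Slbp or Casp8ap2 probe was detected.

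Among 24 listed histone chaperones, 4 of 23 kept probes rose and 2 fell, with a median of -0.11, against 13.5% and 12.8% of all kept probes. Nasp, which holds a reserve of soluble H3 and H4, fell by 0.83 on 1 of 3 kept probes (limma adjusted p = 0.0246), and the others were at -0.71 and -0.35 (adjusted p = 0.0672 and 0.267). Asf1b, which hands H3-H4 dimers to the assembly factors in dividing cells, is the other chaperone that fell, by 0.62 (adjusted p = 0.0189). Daxx, which deposits the replacement histone H3.3, rose by 0.85 (adjusted p = 0.00422), and Nap1l1, a carrier of H2A-H2B, rose by 0.66 on 1 of 2 kept probes (adjusted p = 0.00463), with the other at -0.32 (adjusted p = 0.169). Nap1l4 and Mcm2 were the other chaperones that rose, at 0.56 and 0.42 (adjusted p = 0.0198 and 0.0409), and Mcm2 lost its call under scaling to detected probes (adjusted p = 0.336). The falls of Nasp and Asf1b were each lost in at least 1 fit that left out an array (adjusted p up to 0.0813 and 0.0738) and under scaling to the median of all probes, where they stood at -0.17 and 0.0224.

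Replication-independent variants are made also outside S phase, most of them from polyadenylated mRNA. Of their 10 kept probes 1 rose and 0 fell, with a median of -0.0547, against 13.5% higher and 12.8% lower over all kept probes. The probe that rose was that of H2aj, an H2A variant encoded outside the main clusters, at 1.21 (SE 0.234, limma adjusted p = 0.00740), and it was detected on 3 of 3 double knockout and 3 of 4 control arrays. Its rise was kept under both other scalings and whichever array was left out (adjusted p up to 0.0284). Whether the family and the variants differ as groups was not tested. Under scaling to detected probes 1 of the 10 rose and 2 fell, against 9.3% and 23.3% of all kept probes.

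Genes of DNA replication and nucleotide supply, most of them induced in S phase, were listed for comparison. Mcm2, a subunit of the replicative helicase that also binds H3-H4, was counted among the chaperones above and not here. Of their 44 kept probes, from 29 genes, 13 fell and 0 rose, with a median of -0.17, against 12.8% and 13.5% of all kept probes. E2f2, a transcription factor of the cell cycle, fell on both its probes, by 1.07 and 0.998 (limma adjusted p = 0.00313 and 0.00196). The thymidine kinase Tk1 fell on both of its probes as well, by 1.02 and 0.83 (adjusted p = 0.00237 and 0.00392). Under scaling to the median of all probes 0 of the 44 fell and 13 rose, against 1.47% and 46.5% of all kept probes, and E2f2 and Tk1 were between -0.41 and -0.34 (adjusted p 0.146 to 0.244). No test of histone against S phase genes was made.

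Markers of other blood cells differed between the groups, and their part in the histone values was not tested. Over all kept probes 12.8% fell and 13.5% rose. The sums given here are deposited signals over all probes of a list, undetected ones included, and the double knockout arrays were the brighter group. All 8 kept B-lineage probes fell (9 of 11 listed genes on the array), with a summed signal of 1620 to 1712 on double knockout arrays and 2212 to 2812 on control arrays, and Pax5 and Blnk were not detected on any array. Of 9 kept neutrophil and monocyte probes 5 rose and 0 fell, with sums of 3906 to 5796 against 1856 to 2763. Ngp was not detected. After normalization the array medians of the kept probes overlapped, at 0.44 to 1.08 against -0.10 to 0.60 relative to the control mean. The calls of S100a8, Ctsg and an Mpo probe were each lost in at least 1 fit that left out an array (limma adjusted p up to 0.106, 0.0527 and 0.0911). The other Mpo probes kept theirs (adjusted p up to 0.0149 and 0.0392). Of 4 kept mast cell and basophil probes 2 rose and 0 fell, with sums of 1653 to 1983 against 1329 to 1637. The 11 probes in these sums include 7 not detected on any array, and Cma1, Gzmb, Mcpt8, Ms4a2 and Tpsb2 were not detected. Here too the normalized array medians overlapped, at 0.43 to 1.08 against -0.51 to 0.55. The call of Cpa3 was lost in at least 1 fit that left out an array (limma adjusted p up to 0.147), while that of Hdc was kept (adjusted p up to 0.0122). The 1 kept T and NK probe did not pass, and Cd3e, Cd3g and Cd8a were not detected. Of 3 kept stem cell and gate probes 1 fell. In such bulk samples fewer cells in S phase and less histone mRNA per cell cannot be told apart.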

How the data were processed

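Per the labels, cRNA from 7 sorted samples was hybridised to Illumina MouseRef-8 v2.0 BeadArrays. The submitters' processing notes name GenomeStudio without its version. Each probe of each array has a deposited signal, which is a linear intensity with no normalization, and a deposited detection p-value. A second deposited table, with log2 values, matched quantile-normalized log2 signals centred per probe (median correlation per probe 0.999966, column medians 0.00164 to 0.00513). Its changes ran in the direction of the signals (slope 0.965), and the baseline of its centring is unknown.

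Signals were background-corrected and quantile-normalized with neqc in limma 3.58.1 (R 4.3.3, offset 16) and tested per probe with lmFit and eBayes, two-sided, with Benjamini-Hochberg adjustment over the 10723 probes with detection p under 0.05 on at least 3 arrays. All adjusted p-values are from limma. A probe was named through the platform annotation: 23978 probes had 1 gene symbol, 0 had several and 1719 had none. The procedure was tested on simulated data. All member probes could be named, with full values for those that passed the test and, in a class without one, for the probe of smallest p; other members named were chosen after their values were seen. The members and lists were chosen with earlier results of these data known. Of other lists, up to 4 changed members were named, by size, with Nap1l4 and Mcm2 added after their values were seen. Promoters came from RefSeq, GRCm38.p6. The number of arrays limits the precision. Same-numbered samples of the groups correlated at -0.14, -0.0086 and -0.0079 in their deviations. These values gave no sign that the numbers pair the samples, but such correlations cannot exclude it.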

Additional observations from a re-analysis of the deposited data

Results flagged for a closer look

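In 3 histone probes a control array stood apart from the other 3, by the gap to its nearest neighbour as a share of the group's range. For H2ac7 control array 3 was high, at 14.52 against 14.24 to 14.27 on the log2 scale, with a gap of 0.903 of the range. For H2bc4 control array 1 was high, at 10.73 against 10.08 to 10.15, with a gap of 0.887. For H3c14 control array 3 was low on the brighter probe, at 11.52 against 11.82 to 11.86, with a gap of 0.882. Chance sets apart about 1 in 20 groups of this size, 3 of 46 histone probes (6.52%) were set apart here, and 4.84% of all kept probes were.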

How the results depend on the processing

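The number of histone probes that fell (6) was 3 under scaling to the median of all probes and 12 under scaling to detected probes. It was 0 with array mean signal as a covariate. Of all kept probes 1.47%, 23.3% and 0.0746% fell in these settings. With 1 array left out, 3 to 11 histone probes fell. There were 3 without double knockout array 3 and 11 without control array 4, against 721 and 1277 of all 10723 kept probes. The number that rose (0) was 5 under scaling to the median of all probes and 0 in every other setting. The histone median (-0.31) was 0.16 there, -0.18 without background correction, -0.17 in the processed table, and -0.44 to -0.14 with 1 array left out. The number of all probes called (2820) was 5143 under scaling to the median of all probes, 52 with the covariate, and 1477 to 2624 with 1 array left out. With the replicate number as a block for pairing it was 1685. In that fit 9 histone probes were lower, against 823 of all 10723 kept probes. Among the 9 were 5 of the 6, H3c3 being lost (adjusted p = 0.0707). Whether the numbers pair the samples is not known from the labels, and control array 4 has no partner. H4c14 changed sign to 0.0802 under scaling to the median of all probes. The cause of these shifts was not tested. The 6 calls were all kept without background correction, in the processed table (8 lower in each, H1f1 and H1f5 added), with a stricter detection filter, with 1 probe a gene and with a variance trend and robust fit together; without a filter on dim probes 4 were kept. Leaving out the brightest 1% of member probes was added after seeing the data. Dim probes near background limit what can be read from H2ac8, H2ac4 and H3c3.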
